A study of Mus musculus with 38 samples.

Results

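The cytosolic ribosomal protein genes were taken as every row of the deposited tables whose symbol began with Rpl or Rps followed by a digit, together with Rplp0, Rplp1, Rplp2 and Rpsa. Symbols holding -ps, which mark pseudogene rows, and those starting with Rps6k, which are kinases, were left out. The rule found 86 of 31053 rows, 34 with names of the small subunit and 52 with names of the large one. It used symbols only and no measured value. Rps19bp1, a nucleolar protein that binds the Rps19 protein, carries such a name without being a ribosomal protein, and Rpl7l1 encodes a homologue of the Rpl7 protein.

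The series holds 38 RNA sequencing libraries, each from 2000 sorted mouse T cells, all on a C57/B6 background per the labels. One experiment followed T cells carrying 2D2, a transgenic receptor for a myelin protein. They were turned in culture into Th17Inf cells, the label for an inflammatory form of interleukin-17-producing helper T cells, and injected into WT recipients, in which they caused experimental autoimmune encephalomyelitis. The other was done wholly in culture with Th17Inf cells and dexamethasone (Dex), a synthetic glucocorticoid. At the disease peak, 2D2+ cells were sorted from perfused central nervous system (CNS) of CHD1 cKO (n = 4) and CHD1 WT (n = 3) donors, from draining lymph node (dLN) of CHD1 cKO (n = 4) and CHD1 WT (n = 3) donors, and from CNS of GR cKO (n = 4) and GR WT (n = 4) donors. CHD1 is a chromatin remodeller and GR is the glucocorticoid receptor, encoded by Nr3c1. The cultured groups were IL-23R KO cells with Dex for 2 days (n = 4), WT cells with Dex (n = 4), untreated IL-23R KO cells (n = 4) and untreated WT cells (n = 4), the untreated groups being the controls in the figures. The sample labels write KO for CHD1 where the series text writes cKO, and neither the driver of the conditional deletions nor the age of the mice was stated in the labels. Recipients were WT, so the host kept its own immune cells. The labels do not say that the libraries of a group came from separate mice or cultures, so each p-value reflects only how these libraries varied.

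A ribosome is built from a small and a large subunit, each made of ribosomal RNA and many proteins, most of which are needed in equal numbers. The mRNAs of these proteins are among the most abundant in a cell, most begin with a pyrimidine-rich stretch called the terminal oligopyrimidine (TOP) tract, and their translation depends on mTOR signalling. Activated T cells make many new ribosomes as they grow and divide. In bulk libraries such as these, fewer cells of a type and less RNA per cell cannot be told apart.

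Depth ran from 4911109 to 6262849 counts for CHD1 CNS libraries, from 3148634 to 5158450 for CHD1 dLN libraries, from 6281769 to 9159671 for GR libraries and from 3320586 to 4732419 for cultured ones. Satellite-like and ribosomal RNA rows took 13.1% to 32.6%, 41.8% to 59.7%, 31.2% to 41.9% and 13.5% to 37.5% of the counts in those tables. All 8 T cell genes searched had counts in every group, with sums of 1616 to 9707 scaled CPM. Levels below are CPM scaled by TMM within a table (scaled CPM), and a change was called where edgeR's quasi-likelihood test gave a Benjamini-Hochberg adjusted p under 0.05 over all genes tested. Of the targeted genes, Nr3c1 stood at 5.20 to 6.12 scaled CPM in GR cKO libraries against 11.5 to 17.2 in GR WT libraries, without overlap. Il23r stood at 1.503 to 2.39 in IL-23R KO cells with Dex against 5.89 to 15.9 in WT cells with Dex, and at 2.14 to 5.28 in untreated KO cells against 5.79 to 8.03 in untreated WT cells. Chd1 overlapped between genotypes, with 3.46 to 6.40 scaled CPM in CHD1 cKO CNS cells against 5.06 to 6.11 in CHD1 WT CNS cells, and 2.58 to 5.44 in cKO dLN cells against 4.70 to 5.11 in WT dLN cells. Counts over a whole gene need not fall where only some exons are deleted, so this row does not check the CHD1 labels.

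The 86 rows took 18.2% to 31.0% of all counts outside the repeat and ribosomal RNA rows, and rows named for the small subunit made up 43.1% to 47.8% of that share. The share averaged 19.2% ± 0.430 (SD, n = 4) in CHD1 cKO CNS libraries and 22.4% ± 0.913 (n = 3) in CHD1 WT CNS libraries. In the dLN it averaged 28.6% ± 1.95 (SD, n = 4) in cKO libraries and 25.04% ± 0.774 (n = 3) in WT libraries. These pairs did not overlap, and they lay in opposite orders. In GR libraries the share was 20.6% ± 1.11 (SD, n = 4) in cKO and 18.9% ± 0.729 (n = 4) in WT. With Dex it was 28.9% ± 1.02 in IL-23R KO cells, against 26.7% ± 1.35 in untreated KO cells, and 29.2% ± 1.18 in WT cells, against 27.4% ± 0.622 in untreated WT cells (SD, n = 4 each), and both of these pairs overlapped. No test was made on these shares.

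**Figure D1:**
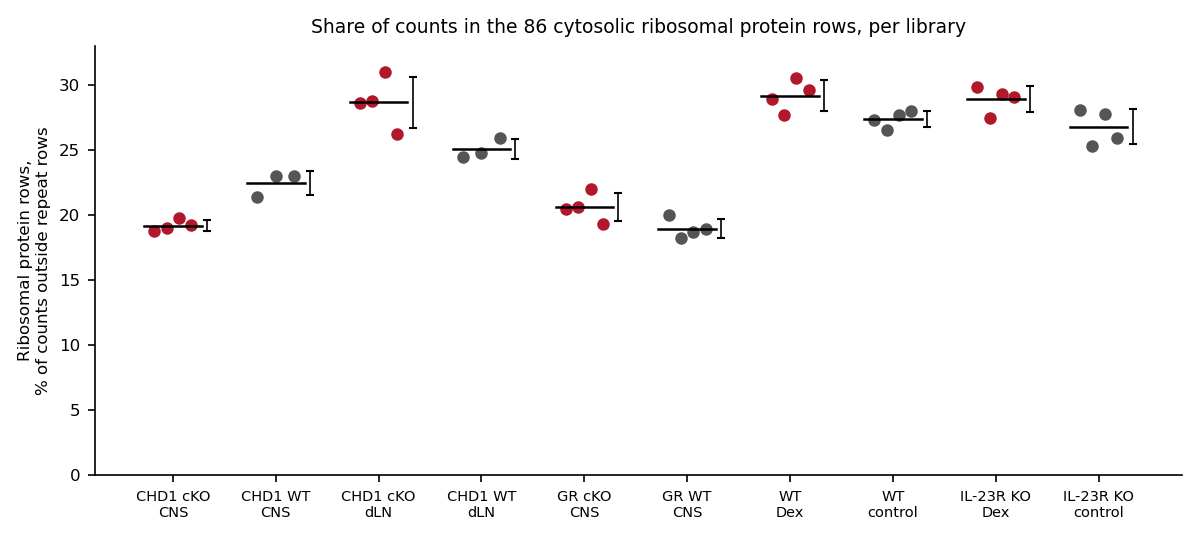
Share of all counts outside repeat and ribosomal RNA rows that fell in the 86 ribosomal protein rows, in percent, 1 point per library, with group means and SD. CHD1 cKO libraries lay below CHD1 WT libraries in the CNS and above them in the dLN.

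Per kilobase of transcript, the levels of the rows differed by orders of magnitude. Averaged over the 4 tables, Rps27, a small-subunit protein with a zinc finger, stood highest at 13964 scaled CPM per kb. It was followed by Rplp1 at 7757, an acidic protein of the large-subunit stalk that recruits translation factors, and by the small-subunit genes Rps29 at 7359 and Rps28 at 6459. Rpl27 stood at 134 scaled CPM per kb, below all but 5 other rows, namely Rps19bp1 at 23.9, Rpl7l1 at 12.8, Rpl39l at 1.46, Rpl10l and Rpl3l. Rpl3l and Rpl10l, paralogues of Rpl3 and Rpl10 known from striated muscle and testis, had at most 3 and 2 counts in any library and passed the filter on low counts in no table. Rpl39l, the testis paralogue of the tunnel protein Rpl39, had at most 24 counts and passed it only in the CNS tables and the joined CHD1 fit. The tests below therefore cover 83 or 84 of the 86 rows.

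Several of these rows share their sequence with others, which limits what a count per row can say. The first 60 coding bases (GENCODE M21, GRCm38) of the Rps27 family and of Rpl39 with its paralogue are shown because counts of these rows recur below, with capitals marking the bases that differ from the first sequence of each family.
Rps27: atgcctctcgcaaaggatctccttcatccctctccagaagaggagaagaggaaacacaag
Rps27rt: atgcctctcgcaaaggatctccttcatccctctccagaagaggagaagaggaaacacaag
Rps27l: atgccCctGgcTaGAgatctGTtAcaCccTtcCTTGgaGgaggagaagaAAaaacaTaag
Rpl39: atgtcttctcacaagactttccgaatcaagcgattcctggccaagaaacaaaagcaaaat
Rpl39l: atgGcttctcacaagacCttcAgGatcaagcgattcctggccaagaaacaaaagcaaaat
Rps27 lies at chr3:90212522-90213651 on the minus strand and Rps27rt, a retrogene, at chr9:114982366-114982739 on the minus strand, and their 252 coding bases do not differ. Rps27l, at chr9:66946086-66949516 on the plus strand, differs from Rps27 at 60 of 252 coding bases, and Rpl39l differs from Rpl39 at 23 of 153. Reads can therefore be told apart within these 2 pairs but hardly between Rps27 and Rps27rt, and Rps27rt took 3.76% to 9.79% of the summed counts of both.

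The transcripts of Rpl27, Rpl10 and Rps12 shared long identical stretches with rows named as their pseudogenes, of which GENCODE types Rpl10-ps3 and Rps12-ps3 as protein-coding. Rpl27 matched Rpl27-ps3 without a difference over 411 of its 732 bases and held only 2.79% to 7.16% of the counts of the pair. Rpl10 matched Rpl10-ps3 over 737 of 855 bases with 22.5% to 37.9%, and Rps12 matched Rps12-ps3 over 494 of 584 bases with 9.73% to 22.0%. Rpl41 matched the row Gm10076 at 99.5% identity and held 59.0% to 66.4%. The low level of Rpl27 above is thus a level of its row, and values of the rows of Rpl27, Rpl10, Rps12 and Rpl41 are uncertain as values of the genes. So are those of Rps27 and Rps27rt, and of Rps7 and Rps18. Rps7 and Rps18 matched other rows at 99.5% identity over 570 bases and at up to 99.3% identity over 540 bases. Those other rows were low, with means of at most 12.0 and 15.7 CPM in any table, without TMM scaling. Rps7 and Rps18 themselves averaged at least 1148 and 2183 CPM. The library kit does not mark strand, so reads from a gene and an overlapping antisense transcript also cannot be told apart.

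In WT cultures, Dex was set against untreated cells to ask how Th17Inf cells respond to a glucocorticoid. Of 83 rows tested, 3 rose and 0 fell, while 8.08% of all genes tested were called (3.88% higher and 4.2% lower). Rplp0, the core protein of the ribosomal stalk, had 4972, 4691, 5133 and 4903 scaled CPM in WT Dex cells against 4124, 4030, 4266 and 4402 in WT untreated cells. The groups did not overlap, and its log2 fold change was 0.23 (SE 0.05; adjusted p = 0.0119, edgeR's quasi-likelihood test). That call held without each library in turn (adjusted p up to 0.0492), while the count of rows called was 1 without WT untreated library 2 and 6 without WT Dex library 2. The shares of all genes called in those fits are not given.

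Over the whole set, differences were small and mostly of the same sign. Of the 83, 73 had a log2 fold change above 0, against 52% of all genes tested, and their median was 0.11 against 0.01 over all genes. The groups did not overlap for 8 rows that were higher (7.86% of all genes) and 3 that were lower (8.2%). The lower ones included Rpl36al, a close paralogue of Rpl36a, at -0.12, and Rpl7l1 at -0.27. Neither was called. Rps27l had a log2 fold change of -0.29 (adjusted p = 0.0907 by edgeR), and the stalk proteins Rplp1 and Rplp2 had 0.12 and 0.10. Rps2, a protein at the mRNA entry of the small subunit, had 2633, 2379, 2653 and 2585 scaled CPM in WT Dex cells against 1339, 1895, 2530 and 3127 in WT untreated cells, a wide spread within the untreated group that held the whole range of the Dex group.

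In IL-23R KO cultures, the same treatment moved most of the rows, in both directions. Of 83 tested, 46 rose and 17 fell, against 27.3% of all genes called higher and 27.4% called lower (54.7% in all). The share of rows that rose (55.4%) was above that of all genes, and the share that fell (20.5%) was below it. The changes were not larger than those of all genes. The SD of the log2 fold changes was 0.47 over the 83 rows and 1.02 over all genes. The median was 0.26 for the rows and 0.01 for all genes, and it was alike for rows named for the small subunit (0.24) and the large one (0.27). For 39 rows the groups did not overlap with Dex higher (24.2% of all genes), and for 17 with Dex lower (23.8%).

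Rps27 rose the most. It had 8958, 7576, 8951 and 9032 scaled CPM in KO Dex cells against 4776, 3621, 4761 and 3901 in KO untreated cells, a fold change of 2.02 (log2 1.02, SE 0.09, adjusted p = 8.77e-08 by edgeR). Each Dex library lay far above each untreated one. Rps27rt had 719.8, 725.2, 814.1 and 681.3 in KO Dex cells against 516.1, 186.2, 454.6 and 324.1 in KO untreated cells (log2 fold change 0.99, SE 0.21, adjusted p = 0.000666 by edgeR), on a row that shares reads with Rps27.

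Next came 4 large-subunit genes and Rps24. Rpl24, at the bridge between the subunits, had 3295, 2798, 3272 and 3279 scaled CPM in KO Dex cells against 1910, 1495, 1754 and 1576 in KO untreated cells (log2 fold change 0.91, SE 0.08, adjusted p = 4.77e-08 by edgeR). Rpl38, known in mice for its role in the translation of Hox mRNAs, had 4081, 3328, 3907 and 3974 against 2303, 1989, 2155 and 2028 (0.85, SE 0.07, adjusted p = 3.27e-08). Neither gene overlapped between the groups, and KO Dex library 6 was the lowest Dex library for both.

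Rpl37a, a zinc-finger protein of the large subunit, had 2756, 2160, 2740 and 2764 scaled CPM in KO Dex cells against 1596, 1305, 1575 and 1362 in KO untreated cells (log2 fold change 0.84, SE 0.09, adjusted p = 7.45e-07 by edgeR). Rps24, which in humans is mutated in some cases of Diamond-Blackfan anaemia, had 5307, 4342, 5130 and 5046 against 3108, 2711, 2962 and 2742 (0.78, adjusted p = 3.78e-08). Both were again without overlap, and in both library 6 was the lowest Dex library. The stalk genes rose as well. Rplp2 had 4073, 3047, 3761 and 3786 in KO Dex cells against 2427, 1946, 2218 and 2088 in KO untreated cells (0.76, adjusted p = 2.83e-06), while Rplp0 had 5349, 4872, 5131 and 5530 against 4232, 3773, 4151 and 4029, and Rplp1 had 5981, 5217, 5854 and 6222 against 4680, 4390, 4513 and 4405. No untreated library reached a Dex library for any of the 3, and Rplp0 and Rplp1 rose by 0.37 each on the log2 scale (adjusted p = 1.73e-05 and 4.82e-05 by edgeR). Rpsa, a small-subunit protein also known as the laminin receptor, had a log2 fold change of 0.16 and was not called (adjusted p = 0.072).

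The rises of the other rows ran from 0.19 for Rps13 to 0.76 for Rps19 on the log2 scale. The 20 rows that were not called, among them Rpl4, Rpl6, Rpl7a, Rpl11, Rps6 and Rps18, had log2 fold changes of -0.25 for Rps19bp1 to 0.16 for Rps29.

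Rps2 fell the most. It had 1876, 1193, 925.3 and 694.4 scaled CPM in KO Dex cells against 3289, 3029, 2973 and 3090 in KO untreated cells (log2 fold change -1.40, SE 0.25, adjusted p = 0.000157 by edgeR). The Dex libraries were widely spread but all lay below the untreated ones.

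Rps26, which contacts the mRNA upstream of the start codon, had 1466, 1244, 1508 and 1502 scaled CPM in KO Dex cells against 2410, 2095, 2223 and 2085 in KO untreated cells (log2 fold change -0.62, SE 0.07, adjusted p = 8.34e-07 by edgeR), without overlap. Of the large subunit, Rpl15 had 1672, 1440, 1534 and 1544 in KO Dex cells against 2291, 2002, 2220 and 2132 in KO untreated cells (-0.48, adjusted p = 1.48e-06). Rpl41, which encodes one of the smallest known proteins, had 4260, 3584, 4092 and 3978 against 5616, 5292, 5365 and 4989 (-0.42, adjusted p = 2.27e-05), also without overlap. Others that fell included Rpl5, Rpl8, Rpl10, Rpl28, Rpl29, Rpl31, Rps25 and Rps27a, together with Rpl7l1, Rps27l and Rpl22l1.

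Paralogues did not move alike. Rpl22, a large-subunit protein with known roles in T cell development, had 1792, 1423, 1689 and 1561 scaled CPM in KO Dex cells against 1054, 805.8, 992.2 and 899.2 in KO untreated cells (log2 fold change 0.79, SE 0.09, adjusted p = 1.11e-06 by edgeR). Its paralogue Rpl22l1 had 651.6, 475.7, 653.8 and 517.4 against 896.7, 666.9, 894.5 and 705.4 (-0.46, SE 0.12, adjusted p = 0.0035). The groups did not overlap for either, and the changes were opposite. Rps27l had 274.7, 244.0, 292.5 and 284.0 in KO Dex cells against 440.3, 422.2, 366.2 and 486.1 in KO untreated cells (-0.65, SE 0.10, adjusted p = 4.71e-05), opposite to Rps27.

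Rpl7l1 had 28.25, 30.76, 28.03 and 39.05 scaled CPM in KO Dex cells against 47.6, 59.08, 44.2 and 56.85 in KO untreated cells (log2 fold change -0.72, SE 0.12, adjusted p = 0.000115 by edgeR), while Rpl7 had 0.00 (adjusted p = 0.967). Rpl36a rose by 0.27 (adjusted p = 0.00667) and its paralogue Rpl36al had 0.01 (adjusted p = 0.893). Rpl39 rose by 0.53 (adjusted p = 1.93e-05), but Rpl39l was too low to be tested. Rps4x rose by 0.24 (adjusted p = 0.00691), Rpl3 had -0.09 (adjusted p = 0.222), and the row of Rpl10 fell by 0.42 (adjusted p = 0.000605). These differences between paralogues were not tested against each other.

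**Figure D2:**
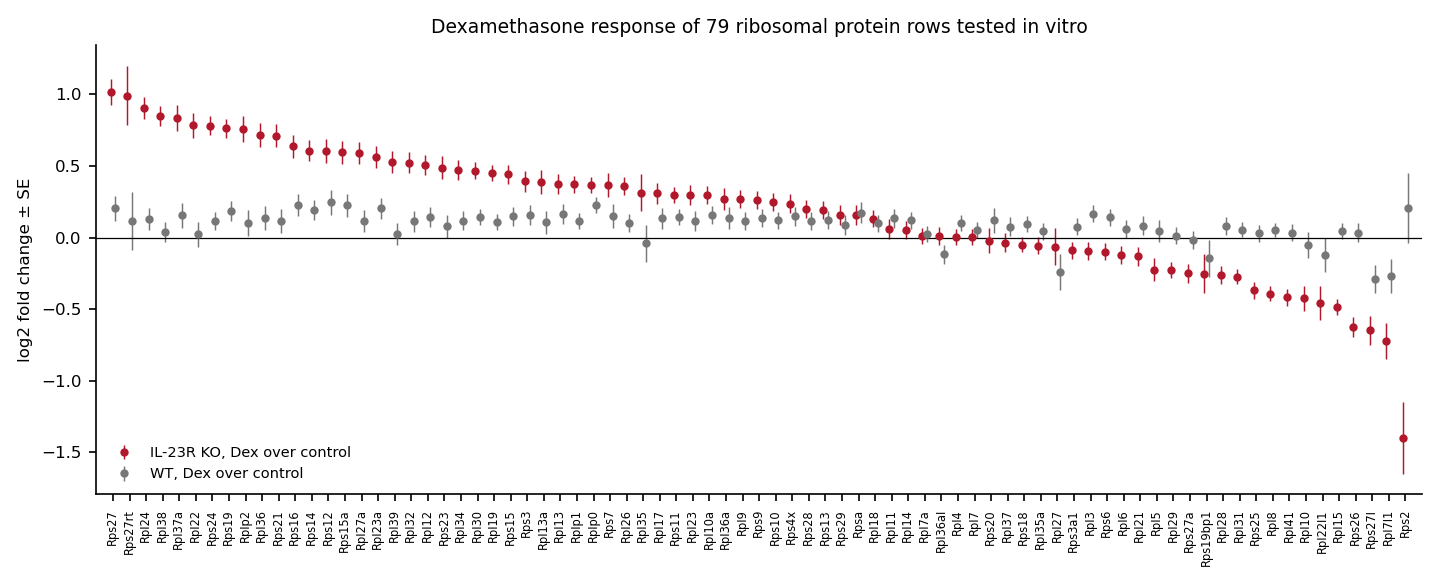
Log2 fold change with Dex over untreated cells for 79 rows, ordered by the value in IL-23R KO cells, with KO values in red, WT values in grey and bars for the SE. KO values ran from 1.02 for Rps27 down to -1.40 for Rps2, while most WT values lay a little above 0.

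The KO Dex libraries also differed in composition. Repeat and ribosomal RNA rows took 30.5% to 37.5% of their counts, and genes encoded by the mitochondrial genome took 0.522% to 0.716% of the counts outside those rows, against 1.96% to 2.86% in the other cultured libraries. The 86 rows took 18.6% to 20.0% of all counts in KO Dex libraries and 21.6% to 22.6% in untreated KO libraries, while the means outside the repeat rows, given above, had the other order. The summed level of 8 genes of dendritic cells and antigen presentation was 910 to 1064 scaled CPM in KO Dex cells against 239 to 393 in KO untreated cells, with Itgax at 0 in all KO Dex libraries. Without the repeat and ribosomal RNA rows in the fit, 45 rows rose and 17 fell. The part of the mitochondrial share and of those 8 genes in the result was not tested.

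Other genes of ribosome production moved apart from the ribosomal proteins. Of 38 ribosome assembly factors tested in KO Dex cells against KO untreated cells, 1 rose and 36 fell, with a median log2 fold change of -1.21. Of all genes, 27.3% were called higher and 27.4% lower in this comparison. Gar1 and Dkc1, of the complex that modifies ribosomal RNA, fell by 3.21 and 2.56 on the log2 scale, and Rrs1, of large-subunit assembly, fell by 2.58. Sbds, which acts in the last step of large-subunit maturation, was the 1 that rose, with 102.8, 87.14, 96.84 and 91.91 scaled CPM in KO Dex cells against 38.97, 51.84, 51.17 and 43.78 in KO untreated cells (1.03), without overlap.

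Of 21 genes of RNA polymerases I and III and their factors, 4 rose and 10 fell in KO Dex cells (median -0.32). The shares of all genes to set beside this and the next lists are again 27.3% higher and 27.4% lower. Polr1b, a core subunit of polymerase I, fell by 1.91, and Ubtf, its activator, by 1.27, while Maf1, the repressor of polymerase III, rose by 0.56. Mitochondrial ribosomal proteins, which serve the separate ribosome inside mitochondria, fell in 61 and rose in 5 of 78 (median -0.55), with Mrpl12 at -1.25 and Mrpl48 at 0.82. Of 20 other mRNAs known to carry a TOP tract, 3 rose and 10 fell (median -0.12). Tpt1, a growth-related protein, rose by 1.42, and Nap1l1, a histone chaperone, fell by 1.08. Fau, whose product is a ribosomal protein fused to a ubiquitin-like part, rose by 1.32. It had 7699, 6933, 7438 and 8023 scaled CPM in KO Dex cells against 3354, 2592, 3385 and 2732 in KO untreated cells, a larger rise than that of any of the 83 rows.

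Of 23 genes of mTOR signalling, 6 rose and 3 fell in KO Dex cells (median 0.00), no larger a share in either direction than the 27.3% and 27.4% of all genes. Those that rose included the inhibitors Ddit4 (1.47), Eif4ebp1 (1.13) and Sesn1 (0.68), and those that fell included Myc (-0.76), a driver of ribosome production, and Mtor itself (-0.63). In WT Dex cells against WT untreated cells, 1 assembly factor fell (Ltv1, -0.53), 7 mitochondrial ribosomal proteins fell and none rose, and of the other TOP mRNAs Tpt1 rose by 0.40 and Eef2, the translocation factor, by 0.18. Ddit4 rose by 0.65 there, and Sesn2 fell by 0.56. Of all genes, 3.88% were called higher and 4.2% lower in WT Dex cells.

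**Figure D3:**
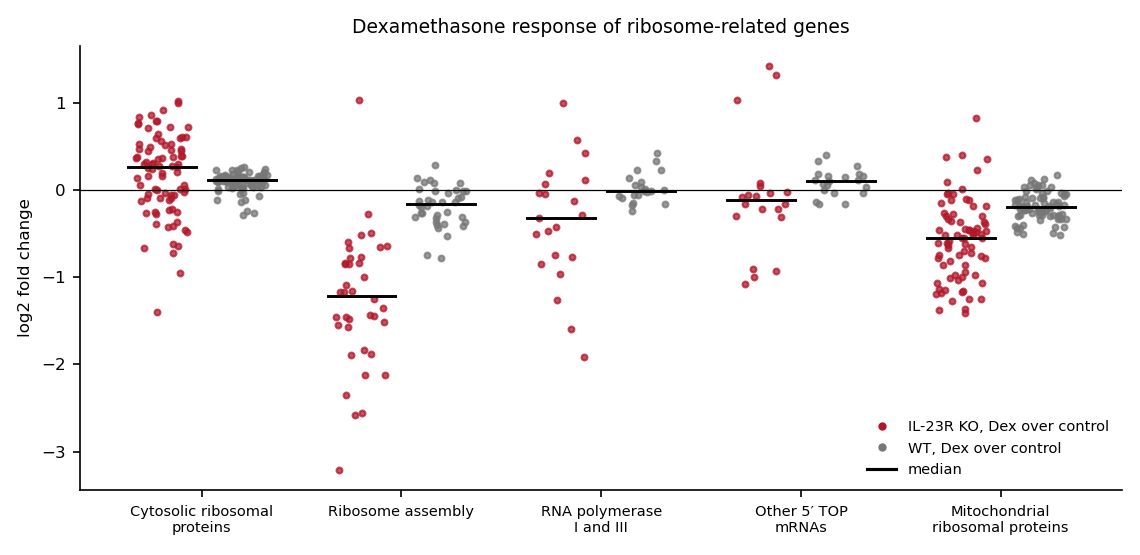
Log2 fold changes of single genes in each list in IL-23R KO and WT cultures with Dex against untreated cells, with the list medians. In KO cells the median of the 83 ribosomal protein rows was 0.26, that of the 38 assembly factors -1.21 and that of the 78 mitochondrial ribosomal proteins -0.55.

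The interaction of genotype with Dex tested whether the response differed between IL-23R KO and WT cells. It was called for 43 of 83 rows, 29 with a more positive response in KO cells (15% of all genes) and 14 with a more negative one (17.2%), against 32.2% of all genes in all. The difference in log2 fold change was 0.81 for Rps27 (adjusted p = 0.000143), 0.81 for Rpl38 (1.34e-05), 0.78 for Rpl24 (4.61e-05), 0.76 for Rpl22 (0.000192) and 0.68 for Rpl37a (0.000616), by edgeR's quasi-likelihood test. It was -1.61 for Rps2 (adjusted p = 0.0021), -0.66 for Rps26 (7.03e-05), -0.53 for Rpl15 (7.73e-05) and -0.45 for Rpl41 (0.000805). Rps27rt had 0.88 (adjusted p = 0.0298), a call lost without WT untreated library 4, KO untreated library 8, WT Dex library 1 or 2, or KO Dex library 7 (adjusted p up to 0.0634). The stalk genes differed among themselves: Rplp2 had 0.65 (0.00103) and Rplp1 0.26 (0.0265), while Rplp0 had 0.14 and was not called (0.165).

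The rows that rose and those that fell in KO cells stood differently in WT cells, with which they share no library. Of the 46 that rose in KO cells, 45 were above 0 in WT cells (97.8%), against 75.7% of the 2950 genes that rose in KO cells. Of the 17 that fell in KO cells, 6 were below 0 in WT cells (35.3%), against 74.0% of the 2961 genes that fell. Rps26, Rpl15 and Rpl41 thus had values of 0.03 to 0.05 in WT cells. Of all 83 rows, 73 were above 0 in WT cells (88%) and 10 below, and the shares of both classes are to be read beside that. Across the 83 rows, the log2 fold changes with Dex in WT and KO cells had Pearson's r = 0.534 and Spearman's rho = 0.56. Over all genes these were 0.44 and 0.45. The WT and KO comparisons come from 1 fit, and no test was made on these counts.

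Set directly against each other, untreated IL-23R KO and WT cells had 0 of 83 rows called by edgeR or DESeq2 (0.684% of all genes by edgeR and 1.05% by DESeq2), and 5 rows with an unadjusted p under 0.05, all lower in KO cells (5.36% of all genes were lower at that threshold). Their fold changes were small but of 1 sign, with 80 of 83 below 0 against 49.9% of all genes and a median of -0.08. Rps28, a small-subunit protein, was the only row without overlap (2.97% of all genes were without overlap and lower), with 3326, 2937, 3402 and 3155 scaled CPM in KO untreated cells against 3626, 3537, 3652 and 3556 in WT untreated cells (log2 fold change -0.16, adjusted p = 0.374).

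With Dex, 29 rows were higher and 25 lower in KO cells than in WT cells (22.2% and 23.7% of all genes, 45.9% in all), and the groups did not overlap for 26 rows in each direction (20.2% of all genes higher and 21.5% lower). Rps27 was higher by 0.83 on the log2 scale (adjusted p = 1.37e-06) and Rpl38 by 0.67 (8.51e-07). Rps2 was lower by 1.13 (adjusted p = 0.00138) and Rps26 by 0.75 (2.14e-07), all by edgeR's quasi-likelihood test.

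**Figure D4:**
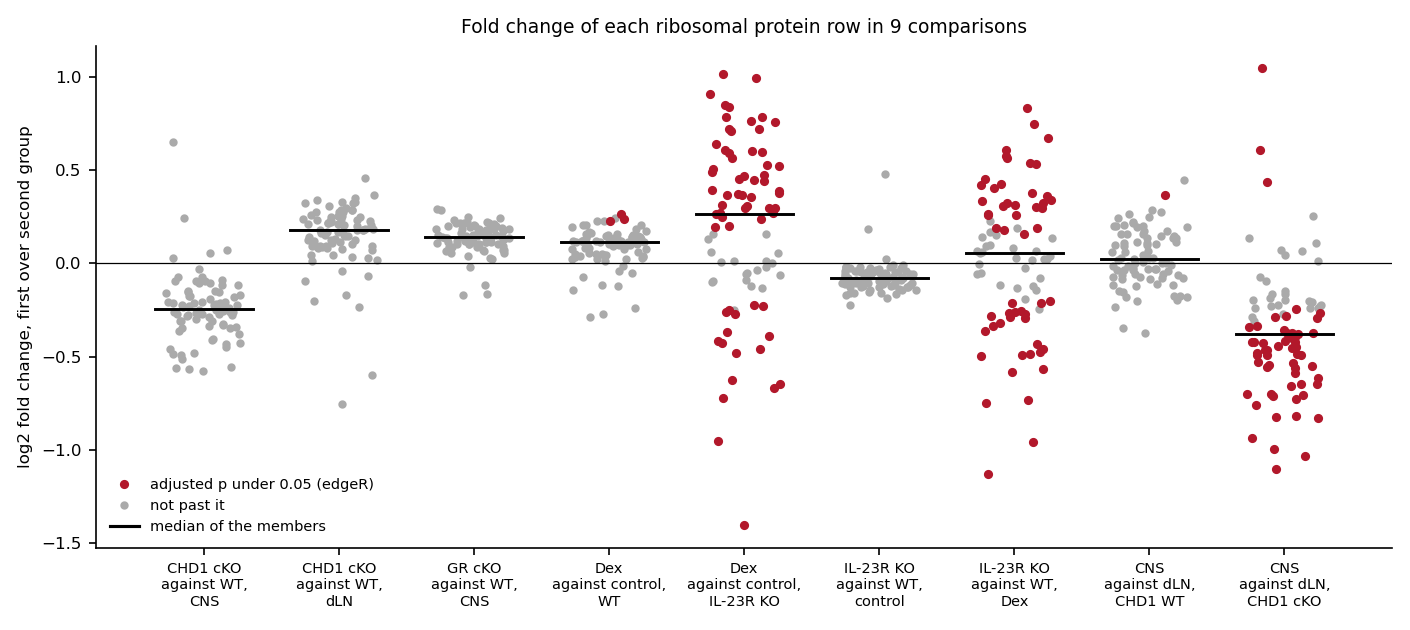
Log2 fold changes of the tested rows in 9 comparisons, 1 point per row, with a bar at the median of all rows tested and called rows in red. Rpl39l, which is near the limit of detection, is not drawn, and the medians were -0.24 for CHD1 cKO in the CNS, 0.18 in the dLN and 0.26 for Dex in IL-23R KO cells.

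The rows that rose and fell in KO Dex cells differed little in median transcript length and GC content. Median transcript length was 782.5 bases for the 46 that rose and 860 for the 17 that fell, and median GC content was 52.7% and 49.3%. In level the classes were not matched, with a median of the mean levels of 2803 for the rows that rose and 2094 for those that fell. RefSeq (GRCm38.p6) gave a promoter for 66 of the 86 genes. The 30 bases around the annotated start, with 15 before it, are shown for genes that rose (Rps27, Rpl38, Rps24, Rpl24, Rpl22) and that fell (Rps26, Rps27l, Rps2), with the longest run of C and T in the window in capitals, because a TOP tract is such a run at the first base of the transcript. The capitals of Rpl22 and Rps27l lie wholly before the annotated start, so outside the annotated transcript. Rpl24 had no run longer than 2 bases. Its capitals mark the first of several runs of that length, before the start, and another lies after the start. The capitals of Rps27, Rpl38 and Rps24 span the annotated start, and those of Rps26 and Rps2 begin after it. Among windows not printed, those of Rpl39 and Rpl12, which rose, also had a longest run that began after the start. Runs that begin after the start thus stood in both classes. Whether the position of the run differs between the classes was not tested.
Rps27: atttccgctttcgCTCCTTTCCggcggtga
Rpl38: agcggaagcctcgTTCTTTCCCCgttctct
Rps24: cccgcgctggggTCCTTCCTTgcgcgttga
Rpl24: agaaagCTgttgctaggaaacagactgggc
Rpl22: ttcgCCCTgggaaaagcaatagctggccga
Rps26: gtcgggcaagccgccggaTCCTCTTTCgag
Rps27l: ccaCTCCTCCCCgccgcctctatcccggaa
Rps2: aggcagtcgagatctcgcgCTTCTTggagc
In order, these windows lie at chr3:90213634-90213663 (minus strand), chr11:114668565-114668594 (plus), chr14:24490663-24490692 (plus), chr16:55966260-55966289 (plus), chr4:152325711-152325740 (plus), chr10:128626492-128626521 (minus), chr9:66946071-66946100 (plus) and chr17:24720048-24720077 (plus).

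A run of 8 or more C or T on the gene's strand, before or after the start, was found in the window of 25 of the 66 genes (37.9%), against 11.9% of 27025 promoters and 11.8% of the 8224 promoters of genes tested in culture. A run of 8 or more A or G, searched the same way, was found in 3.03% against 12.9%. The C or T run was found in 13 of 36 genes that rose (36.1%) and 6 of 12 that fell (50%). Both counts cover genes with a promoter in the table. Long and short runs thus stood in both classes, as in the windows printed above. The count takes a run anywhere in the window, so it does not compare TOP tracts, which begin at the first base. The motif CGGAAG, searched on both strands of the 300 bases around the start, was found in 44 of 66 genes (66.7%), against 17.2% of all promoters and 35.4% of those tested in culture, and in 66.7% of both classes. CACGTG was found in 7.58% and TATAAA in 9.09% of the genes, against 7.24% and 14.2% of all promoters. Among promoters of genes tested in culture the values were 10.5% and 6.6%, so the order depended on the background. By class, CACGTG was found in 4 of 36 that rose and 0 of 12 that fell, and TATAAA in 4 of 36 and 2 of 12. Start sites are annotated ones and were not measured in these cells.

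CHD1 cKO and WT cells from the CNS were compared to ask what the remodeller does in Th17 cells at the site of disease. No row was called among 84 tested by edgeR, with 0.00896% of all genes called, while 28 rows had an unadjusted p under 0.05 (11.9% of all genes). DESeq2 called 12 of 83 (2.07% of the 8518 genes to which it gave an adjusted p), 11 of them lower in cKO cells (0.552%). Of the 28, 27 were lower in cKO cells, against 5.83% of all genes. In all, 78 of 84 rows were below 0, against 51.1% of all genes, with a median log2 fold change of -0.24 against -0.01. The groups did not overlap for 34 rows that were lower (6.83% of all genes) and 1 that was higher (5.95%).

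Rpl23, a large-subunit protein, had 1464, 1411, 1344 and 1464 scaled CPM in cKO CNS cells against 1976, 1963 and 2058 in WT CNS cells (log2 fold change -0.49, SE 0.11, adjusted p = 0.236 by edgeR). Rpl39 had 1253, 992.4, 1170 and 1167 against 1771, 1635 and 1665 (-0.56, SE 0.12, adjusted p = 0.235). The groups were wide apart for both, but neither was called. The row without overlap in the other direction was Rps27l, with 232.6, 240.2, 240.2 and 286.0 in cKO CNS cells against 143.8, 158.2 and 175.2 in WT CNS cells (0.65, SE 0.13, adjusted p = 0.178). DESeq2 called all 3 genes, with adjusted p = 1.53e-05, 0.000636 and 0.000358. The stalk genes Rplp0, Rplp1 and Rplp2 had log2 fold changes of -0.26, -0.28 and -0.36, and Rpsa had -0.41.

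These sorted CNS libraries also held RNA of other cells. The summed level of 12 macrophage and microglia genes was 2903 to 5460 scaled CPM in cKO CNS libraries against 2645 to 3276 in WT CNS libraries, and all 12 were above 0 with none called. The 8 genes of dendritic cells and antigen presentation summed to 4702 to 9070 in cKO and 2946 to 3718 in WT libraries, 8 B cell genes to 105 to 528 in cKO and 45.1 to 74.3 in WT (with Pax5 at 0 in the WT libraries), and 8 T cell genes to 3848 to 9018 in cKO and 7055 to 9707 in WT. The part of these cells in the lower ribosomal protein levels was not tested. Mitochondrial ribosomal proteins stood the other way, 70 of 78 above 0 with a median of 0.17, as did 30 of 38 assembly factors (0.16). Of 20 other TOP mRNAs, 18 were below 0 (-0.19). None in these 3 lists was called.

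In the dLN, cKO cells had the opposite order. No row was called among 83 tested by edgeR (0.0714% of all genes) or DESeq2 (2.66%), and 18 had an unadjusted p under 0.05 (20.1% of all genes), 16 of them higher in cKO cells (9.61% of all genes). In all, 75 of 83 were above 0, against 52.1% of all genes, with a median of 0.18 against 0.02, and the groups did not overlap for 19 rows that were higher (8.86%) and 2 that were lower (7.98%). Rps7, a small-subunit protein, had 1312, 1264, 1308 and 1149 scaled CPM in cKO dLN cells against 895.5, 985.2 and 1123 in WT dLN cells (log2 fold change 0.33, SE 0.11, adjusted p = 0.154 by edgeR). The lowest cKO library lay just above the highest WT one.

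Rpl23 had 1513, 1399, 1536 and 1374 scaled CPM in cKO dLN cells against 1151, 1209 and 1299 in WT dLN cells, and Rpl39 had 1160, 1025, 1067 and 1000 against 856.0, 883.7 and 1007. Rpl23 did not overlap, and Rpl39 overlapped by 1 library. Rps27l had 73.7, 75.6, 71.4 and 115.4 in cKO dLN cells against 144.3, 191.1 and 90.1 in WT dLN cells (log2 fold change -0.75, SE 0.25, adjusted p = 0.149), with cKO library 4 inside the WT range. The row of Rpl27 had 45.5, 56.6, 44.2 and 68.3 against 77.4, 95.4 and 70.7 (-0.60, SE 0.18, adjusted p = 0.125), but 0.05 with its pseudogene row added. Without cKO dLN library 4, Rps27l and the Rpl27 row were called (adjusted p = 0.035 and 0.0217).

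Of 83 rows tested in both tissues, 74 were lower in cKO cells in the CNS and higher in cKO cells in the dLN (89.2%), against 29.8% of the 9591 genes tested in both. 4 rows had the reverse order, 4 were lower in both tissues and 1 was higher in both. Mitochondrial ribosomal proteins again stood opposite, with 65 of 78 below 0 in the dLN (median -0.22). CD8 T cell genes summed to 109 to 500 scaled CPM in cKO dLN libraries against 12.4 to 19.8 in WT dLN libraries, and both genes of that list were called; their part in the result was not tested. The macrophage and microglia genes summed to 5.17 to 55.4 in cKO and 8.85 to 42.8 in WT dLN libraries, far under their CNS level.

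**Figure D5:**
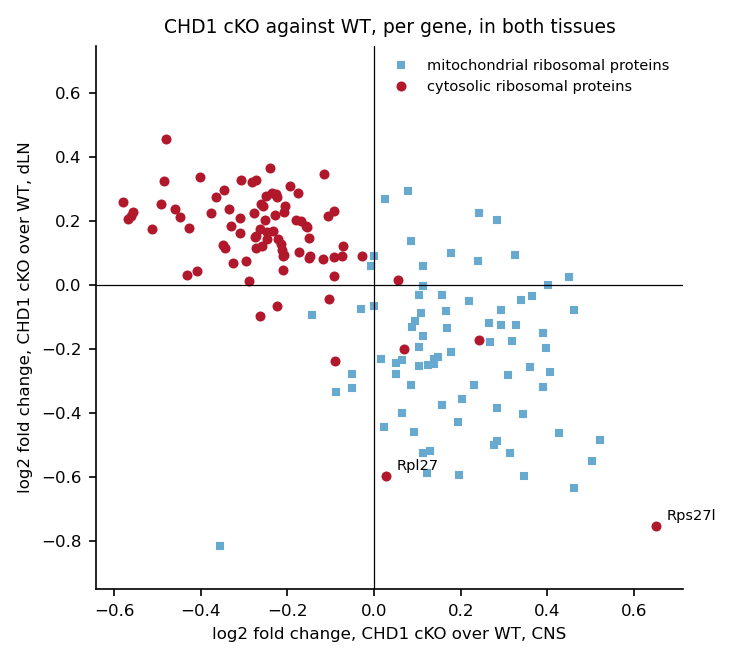
Log2 fold change of CHD1 cKO over WT cells in the CNS (horizontal axis) and in the dLN (vertical axis), with 1 red point per ribosomal protein row tested in both and 1 blue square per mitochondrial ribosomal protein. Of the red points, 74 of 83 lay at upper left, with lower values in the CNS and higher values in the dLN, and Rps27l lay at lower right.

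Whether the effect of CHD1 differed between tissues was tested in a joined fit of the 14 CHD1 libraries, in which tissue is confounded with table. The interaction was below 0, meaning a more negative cKO effect in the CNS, for 78 of 84 rows, against 52.9% of all genes, with a median of -0.45 against -0.04. It was called for 1 row (0.112% of all genes), and 54 had an unadjusted p under 0.05 (18.9% of all genes), 52 of them below 0 (9.37%). DESeq2 called 27 of 83 (7.53% of the 7635 genes to which it gave an adjusted p), 26 of them below 0 (2.08%). The row called by edgeR was Rpl23, at -0.76 (SE 0.13, adjusted p = 0.0472 by edgeR). On the scale of the joined fit it had 1223, 1172, 1124 and 1222 in cKO CNS cells, 1645, 1635 and 1709 in WT CNS cells, 1826, 1693, 1840 and 1640 in cKO dLN cells, and 1368, 1418 and 1569 in WT dLN cells. Its call was lost in 11 of the 14 fits that left out 1 library (adjusted p up to 0.164). The call was kept without cKO CNS library 2, WT dLN library 3 or cKO dLN library 4, and without that last library 22 rows were called. The share of all genes called in that fit is not given, so the 22 is not read as a result about these rows. Rpl39 had -0.79 (adjusted p = 0.0645) and Rps27l 1.39 (0.0704).

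The same fit compared CNS with dLN cells within a genotype, so each value below also holds the difference between the tables. In WT cells, 2 of 84 rows were higher in the CNS and 0 lower, against 16.7% of all genes called (11.8% higher and 4.93% lower), and 47 were above 0 (48.9% of all genes) with a median of 0.03. Rpl39 had 1475, 1361 and 1382 in WT CNS cells against 1017, 1036 and 1216 in WT dLN cells (log2 fold change 0.37, SE 0.12, adjusted p = 0.048 by edgeR), a call lost in most fits that left out 1 library (adjusted p up to 0.162). Rpl39l was the other row, with 9, 16 and 3 counts in the WT CNS libraries and 0 in each WT dLN library. Its call rests on few counts, and it is listed with no fold change.

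In cKO cells, 3 rows were higher and 53 lower in the CNS than in the dLN, against 24.6% and 22.7% of all genes (47.3% in all). The median was -0.38 against -0.02, 73 of 84 rows were below 0 (51.2% of all genes), and the groups did not overlap for 46 rows that were lower (19.5%) and 2 that were higher (20.5%). Rpl12, part of the stalk base, had 1510, 1712, 1160 and 1488 in cKO CNS cells against 3273, 2925, 3201 and 2596 in cKO dLN cells (log2 fold change -1.03, SE 0.13, adjusted p = 2.58e-05 by edgeR). Rps27 had 3288, 3284, 4317 and 3396 against 7720, 6875, 7715 and 6115 (-0.99, SE 0.13, adjusted p = 2.54e-05). Neither overlapped, and every CNS library stood far below every dLN library.

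Rps21, a small-subunit protein, had 935.7, 901.5, 755.3 and 1010 in cKO CNS cells against 1849, 1587, 1893 and 1574 in cKO dLN cells (log2 fold change -0.94, adjusted p = 2.52e-05 by edgeR), and Rps24 had 1919, 1758, 1841 and 1867 against 3566, 3065, 3614 and 2866 (-0.83, adjusted p = 3.13e-05), both without overlap. Rps27rt and the row of Rps12 fell by 1.10 and 0.83. Of the stalk genes, Rplp1 fell by 0.82, Rplp2 by 0.66 and Rplp0 by 0.42, and Rpsa fell by 0.46. Rps27l was higher, with 194.3, 199.6, 201.0 and 238.9 in cKO CNS cells against 89.0, 91.5, 85.6 and 137.8 in cKO dLN cells (1.05, SE 0.20, adjusted p = 0.00063), without overlap.

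The other 2 rows called higher were less firm. Rps19bp1 had 16.8, 19.5, 30.2 and 25.3 in cKO CNS cells against 16.7, 13.5, 15.2 and 14.9 in cKO dLN cells (log2 fold change 0.61, adjusted p = 0.0198 by edgeR), a call lost without cKO CNS library 3 (adjusted p = 0.067) or 4 or cKO dLN library 2. The row of Rpl27 had 0.44 (adjusted p = 0.0309), a call lost without cKO CNS library 2 or 4 or cKO dLN library 1 or 3, and -0.03 with its pseudogene row added. Mitochondrial ribosomal proteins rose in 34 and fell in 1 of 78 in this comparison (median 0.32), and of 20 other TOP mRNAs 1 rose and 7 fell, among them Tpt1 at -0.74. The shares of all genes were 24.6% higher and 22.7% lower. All 12 macrophage and microglia genes were called higher in the CNS in both genotypes, and their part in these differences was not tested. How the difference between tissues differed between genotypes is the interaction given above.

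GR cKO and WT cells from the CNS were compared to ask what the glucocorticoid receptor does in Th17 cells during disease. Of 84 rows, 0 were called by edgeR or DESeq2, with 0% of all genes called by edgeR and 0.71% by DESeq2. An unadjusted p under 0.05 was found for 10 rows, all higher in cKO cells (5.69% of all genes), and 79 of 84 were above 0 (49.6% of all genes) with a median log2 fold change of 0.14 against -0.00. The groups did not overlap for 7 rows that were higher (2.66%).

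Rps19, the small-subunit protein most often mutated in human Diamond-Blackfan anaemia, had 2244, 2127, 2339 and 1889 scaled CPM in GR cKO cells against 1859, 1630, 1742 and 1807 in GR WT cells (log2 fold change 0.29, SE 0.09, adjusted p = 0.319 by edgeR). The lowest cKO library stood just above the highest WT one. Rpl31, a protein at the exit of the peptide tunnel, had 992.2, 989.9, 881.9 and 839.1 against 833.8, 768.5, 765.9 and 822.3 (0.21, adjusted p = 0.411), also without overlap, while Rps25 had 2129, 2044, 2108 and 1755 against 1775, 1601, 1591 and 1792 (0.25, adjusted p = 0.36) and overlapped by 1 library. Other cell types were present here too: macrophage and microglia genes summed to 3490 to 6760 scaled CPM in GR cKO libraries against 1636 to 5043 in GR WT libraries, and T cell genes to 4702 to 7007 in cKO against 5551 to 7836 in WT. Their part in the higher values was not tested. Assembly factors had 25 of 38 below 0 (median -0.07), and mitochondrial ribosomal proteins had 43 of 78 above 0 (0.01), with none called.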

How the data were processed

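Each of 4 deposited tables holds 1 expected count per gene symbol and library, without normalization, which the authors made with RSEM 1.3.3 on mm10, per the submitters' processing notes. All values were whole and were taken as rounded. No source used here names the aligner, the annotation release or the rounding. Libraries came from 2000 sorted cells with 12 amplification cycles of a modified SMART-Seq2 protocol on polyA RNA, per the labels. Of 31053 symbols, 30532 (98.3%) were found in GENCODE M21, which gave positions and lengths. The labels name no molecular identifiers, so counts are not independent molecules.

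Computed here were tests with edgeR 4.0.16 in R 4.3.3 (filterByExpr with minimum count 10 and minimum total 15, TMM scaling, quasi-likelihood F test, Benjamini-Hochberg adjustment over all genes tested in a comparison, threshold 0.05). The CHD1 CNS, CHD1 dLN and GR tables were fitted separately, the 16 cultured libraries in 1 fit, and the 14 CHD1 libraries in a joined fit for tissue. The SE is the absolute log2 fold change over the square root of F. Levels are TMM-scaled CPM, and levels per kb use the longest principal GENCODE transcript. Near copies were found with BLAST 2.17.0+. Code was tested on simulated counts with known changes.

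The members, gene lists and tests were chosen with earlier results of these data known. Genes named were the stalk genes, Rpsa and the paralogue pairs in every table, per comparison up to 6 rows per direction with the largest called change at 10 scaled CPM or more (where fewer than 3 were called, the 3 with the smallest p), the 4 highest and 4 lowest per length, and members of the lists. Rps24, Rps28, Rpl15 and Rpl41 in comparisons where that rule does not reach them, and Rpl23 and Rpl39 in the dLN, were added after their values were seen. Some genes the rule names are not reported here.

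Alternatives were DESeq2 1.42.0, its size factors in edgeR, TMM computed without the members, no filter on low counts, a minimum mean of 10 CPM, leaving out 16 repeat and ribosomal RNA rows, adding pseudogene rows to their parents, a replicate block, only the 8 libraries compared, and leaving out each replicate. Percentages of genes called by DESeq2 are of those to which it gave an adjusted p, a number that differed between comparisons.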

Additional observations from a re-analysis of the deposited data

Results flagged for a closer look

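In groups of 4 libraries, 81 sets of values of the genes described were searched for a library far from the other 3, and 9 were found. Chance gives about 1 in 20 for independent sets, but these are not independent: 4 of the 9 come from 1 library, and each of 2 values of Rps27l is counted on 2 scales, so nothing is read from the count. In IL-23R KO Dex cells, library 6 was the lowest by a wide gap for Rps27 (7576 scaled CPM), Rpl24 (2798), Rpl37a (2160) and Rps26 (1244), while the other 3 libraries lay close together. For Rps27l, library 4 stood above the rest in CHD1 cKO CNS cells (286.0, and 238.9 on the scale of the joined fit) and in CHD1 cKO dLN cells (115.4, and 137.8 on the joined scale). CNS library 3 of the cKO cells was high for Rps27 (4317 on the joined scale). All of these libraries were kept, and fits without each are among the alternatives.

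The response to Dex differed between IL-23R KO and WT cells, by the interaction term of edgeR's quasi-likelihood test with Benjamini-Hochberg adjustment, for 43 of 83 rows. Of all genes tested, 32.2% were called for this interaction. The difference in log2 fold change was 0.88 for Rps27rt, 0.81 for Rps27, 0.81 for Rpl38, 0.78 for Rpl24, 0.76 for Rpl22 and 0.68 for Rpl37a. It was -1.61 for Rps2, -0.66 for Rps26, -0.53 for Rpl15 and -0.45 for Rpl41. The effect of CHD1 differed between CNS and dLN for 1 row, Rpl23 (-0.76), and for 0.112% of all genes, in the fit where tissue is confounded with table. That call was lost in 11 of 14 fits that left out 1 library, and also with DESeq2 size factors, with a replicate block and without a filter on low counts, while DESeq2 itself made it.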

How the results depend on the processing

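Counts of ribosomal protein rows called moved by more than 1.5 times as follows, and causes were not tested. Beyond the shares given above, those of all genes called under other settings or without single libraries are not given. The counts therefore describe how calls moved and are not read as results about these rows. For CHD1 cKO against WT in the CNS, DESeq2 called 12 (1 higher, 11 lower) in place of 0. In the dLN, no filter on low counts gave 1. For Dex in WT cells, no filter gave 1 in place of 3. For CNS against dLN in CHD1 WT cells, DESeq2 gave 4, no filter 1 and a minimum mean of 10 CPM 0, in place of 2. In CHD1 cKO cells, no filter gave 35 (3 higher, 32 lower) in place of 56. For the CHD1 genotype by tissue interaction, DESeq2 gave 27 (1 higher, 26 lower), DESeq2 size factors 0 and a minimum mean of 10 CPM 9 (1 higher, 8 lower), in place of 1. The numbers do not pair the libraries: same-numbered libraries had correlations of -0.0803 to 0.109. With a replicate block, 3 were called in the dLN (1 higher, 2 lower), 9 for Dex in WT cells (8 higher, 1 lower), 1 for CNS against dLN in CHD1 WT cells and 0 for the CHD1 interaction, and the block moved no other count of calls by over 1.5 times. Leaving out 1 library gave 0 to 0 calls for CHD1 in the CNS, 0 to 3 in the dLN, 0 to 0 for GR, 1 to 6 for Dex in WT cells (1 without WT untreated library 2, 6 without WT Dex library 2), 61 to 64 for Dex in KO cells, 0 to 0 for untreated KO against WT cells, 50 to 56 for KO against WT cells with Dex, 36 to 44 for the IL-23R interaction, 0 to 3 and 48 to 66 for CNS against dLN in CHD1 WT and cKO cells, and 0 to 22 for the CHD1 interaction. Median log2 fold changes ran from -0.30 to -0.19 for CHD1 in the CNS, 0.12 to 0.22 in the dLN, 0.11 to 0.18 for GR, 0.08 to 0.14 for Dex in WT cells and 0.22 to 0.30 in KO cells, so no library turned a sign there. The row of Rpl27 turned to -0.0275 in CNS against dLN cKO cells (adjusted p = 0.858) once its pseudogene row was added. Without a filter, Rplp0 lost its call for Dex in WT cells (adjusted p = 0.0554). Of single genes, 640 values under other settings kept their direction and side of the threshold, 17 gained and 8 lost a call. Rows under the filter (Rpl3l, Rpl10l) cannot be compared at this depth.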

Other observations

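Across the 83 rows tested in both, the log2 fold changes of Dex in IL-23R KO cells and of CHD1 cKO in the dLN, which share no library, had Pearson's r = 0.606 and Spearman's rho = 0.681, against a Spearman's rho of 0.362 over all genes. Those of Dex in WT cells and of CHD1 cKO in the dLN had 0.702 and 0.497, against 0.279 over all genes. With CHD1 cKO in the CNS, the values for Dex in KO cells were -0.444 and -0.432, against a rho of -0.208 over all genes. With GR cKO in the CNS, they were near 0. Dex in WT cells had 0.0865 and 0.0068 (rho 0.0136 over all genes), and Dex in KO cells had 0.052 and 0.0576 (0.0337). These are descriptions over genes, which are not independent replicates, and the rows share a high level and short transcripts. The correlation of fold change with mean level over the rows differed in sign between comparisons. It was r = 0.715 and rho = 0.468 for Dex in WT cells (rho -0.112 over all genes) and 0.599 and 0.428 for CHD1 cKO in the dLN (-0.0768). For Dex in KO cells it was 0.286 and 0.289 (-0.109). It was -0.374 and 0.0112 for CHD1 cKO in the CNS (0.164), -0.669 and -0.42 for CNS against dLN in cKO cells (0.133), and -0.596 and -0.327 in WT cells (0.0495).

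Nr3c1, the receptor for Dex, stood at 9.02, 8.202, 10.8 and 9.83 scaled CPM in IL-23R KO Dex cells, against 3.03, 3.13, 3.75 and 2.65 in untreated KO cells, without overlap, and at 3.08 to 3.85 in WT Dex cells against 2.14 to 4.11 in untreated WT cells.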
